A study of Caenorhabditis elegans with 12 samples.

Results

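The cytosolic ribosomal protein genes of Caenorhabditis elegans were described across feminized XO and XX gonads and the whole animals that carry them. Members were all gene rows whose sequence name maps to a WormBase symbol of rps- or rpl- followed by a digit, and symbols of mrps- or mrpl- (mitochondrial ribosome) did not count. This gave 76 of 20389 gene rows, 31 for the small subunit and 45 for the large subunit. They lie on chromosome I (21), II (10), III (18), IV (17), V (8) and X (2). The annotation holds 78 such symbols, and the other pair, rpl-41.1 and rpl-41.2, was not analysed here. RefSeq uses another symbol for 17 members, and the ribosomal protein genes ubl-1, W01D2.1 and Y37E3.8, which only RefSeq names so, were kept apart from the members.

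All 12 samples carried fog-1(q253)ts, a conditional mutation in a gene that germ cells use to become sperm, and were kept at 25 °C, where germ cells of both karyotypes become oocytes. The 4 groups of 3 libraries were gonads dissected from XO young adults, gonads dissected from XX young adults, whole XO young adults and whole XX young adults. XO animals have 1 X chromosome and a male body, and XX animals have a hermaphrodite body, here without sperm. Each gonad sample pooled at least 200 gonads and each whole worm sample at least 600 animals picked by hand, so germ cells and the somatic cells around them were measured together. In such bulk samples fewer cells of a type and less RNA per cell cannot be told apart.

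Ribosomal proteins assemble with ribosomal RNA into the small subunit, which decodes the message, and the large subunit, which joins amino acids. Each ribosome holds 1 copy of nearly every one of them, and most are made from a single gene in C. elegans, while a few have a second gene copy. In the C. elegans germline most of the X chromosome is kept silent during much of development, and genes with steady germline use lie mostly on autosomes.

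Libraries held from 7912618 to 16140259 gene counts. Markers matched the labelled tissue: the summed level of 7 germline markers was 5961 to 7449 CPM, read counts relative to library size, in the 6 gonad libraries. Body wall muscle markers summed to 108 to 411 CPM in gonads and 5158 to 12778 CPM in whole worms, and markers of sperm summed to at most 8.12 CPM in any library. Markers of males (4 genes) summed to 29.4 to 137 CPM in XO libraries and 2.13 to 2.94 CPM in XX libraries. The first library of XX gonads stood apart: its counts differed from its 2 replicates with a chi-square per degree of freedom of 125 and 172, against 5.14 to 22.4 in all other pairs of replicates. Counts of members called, the share of counts and the gonad log2 ratios of member copies are therefore given with and without it. Most other values that rest on XX gonads, such as those of many single genes named below, include it.

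The members took a large part of the messenger RNA, more in gonads than in whole worms. Their share of all gene counts was 11.7%, 13.9% and 12% in the XO gonad libraries, 12.5% ± 1.2 (SD, n = 3). In XX gonads it was 16.4%, 12% and 12.3%, 13.6% ± 2.47 (n = 3). The XO and XX gonads overlapped, and the library that stood apart was the highest.

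Whole worms had lower shares than either kind of gonad. XO whole worms held 7.25%, 7.58% and 8.79%, 7.87% ± 0.812 (n = 3), and XX whole worms held 9.38% ± 0.0407 (n = 3). Each XO worm library was below each XX worm library. The difference of -1.5 percentage points had an exact 2-sided permutation p of 0.1, the smallest that 3 libraries against 3 can give. Relative to autosomal counts it was -2.37 points, and relative to library sizes scaled by the trimmed mean of M values (TMM) -2.39 points. In gonads it was -1.07 points with an exact permutation p of 0.5, and without the first XX gonad library it was 0.353 points.

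**Figure D1:**
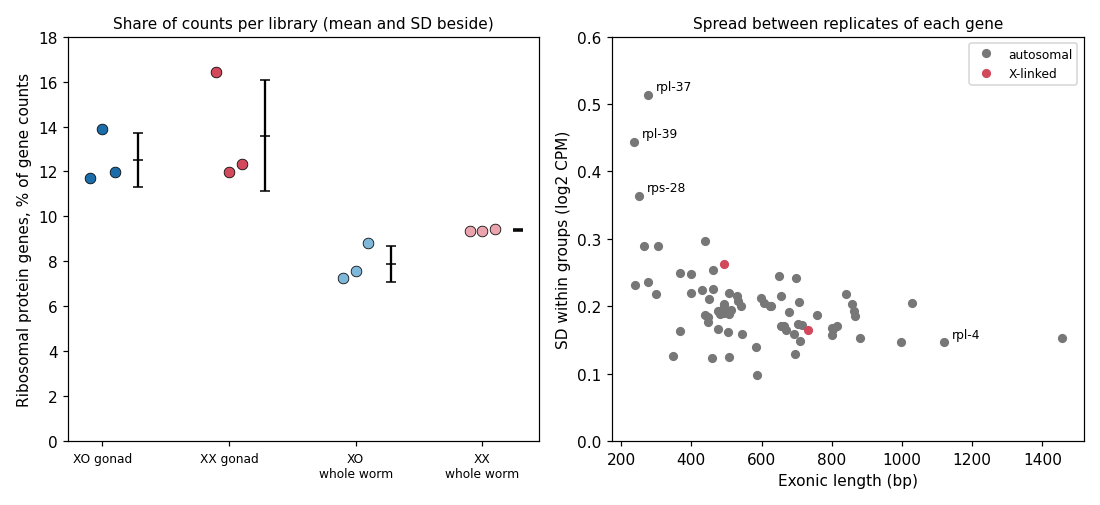
Left, ribosomal protein genes as a percent of all gene counts, 1 point per library, with bars for the mean and SD of each group (n = 3); the gonad groups overlap at 11.7% to 16.4% and the whole worm groups do not, at 7.25% to 8.79% in XO and about 9.4% in XX. Right, SD between replicates of log2 CPM against exonic length in bp, 1 point per gene tested, with rpl-37, rpl-39 and rps-28 the most variable.

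Of the 76 members, 74 passed the filter on low counts. The filter removed rpl-16 (RPL13A of the large subunit), which was listed at 0 counts in all 12 libraries. It also removed rpl-42 (large subunit), which held 0 to 2 counts in any library. The reason for these low counts is not known, and they were not read as absence of either transcript. All further counts are of the 74.

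Levels between genes were compared per kilobase (kb) of exon. Median levels of the members were 3061 CPM per kb in XO gonads, 3377 in XX gonads, 1798 in XO whole worms and 2273 in XX whole worms. Between 71 and 73 members were among the 500 highest genes of each group. The highest member in all 4 groups was rpl-29, a small protein of the large subunit, at 5891 CPM per kb in XO gonads and 3791 in XO whole worms.

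At the bottom stood 4 genes far below the rest. They were both X-linked members, rpl-11.2 and rpl-25.1, with the autosomal rpl-24.2 and rpl-37. In XO gonads rpl-11.2 was the lowest at 31.7 CPM per kb. In the other groups the lowest was rpl-24.2, which RefSeq names rsl-24D1 after a factor of large subunit assembly, at 111, 84.7 and 77.6 CPM per kb. The next gene up, rpl-22, stood at 1178 CPM per kb in XO gonads. For rpl-37, which RefSeq calls rpl-37.2, the copy W01D2.1 (rpl-37.1) carried 4637 CPM per kb in XO gonads. Both rpl-37 and rpl-24.2 lie inside a gene on the other strand, pitp-1 and C03D6.1, and the strand setting of the counting is not given in the sources used here; their low counts may hold reads of that gene.

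**Figure D2:**
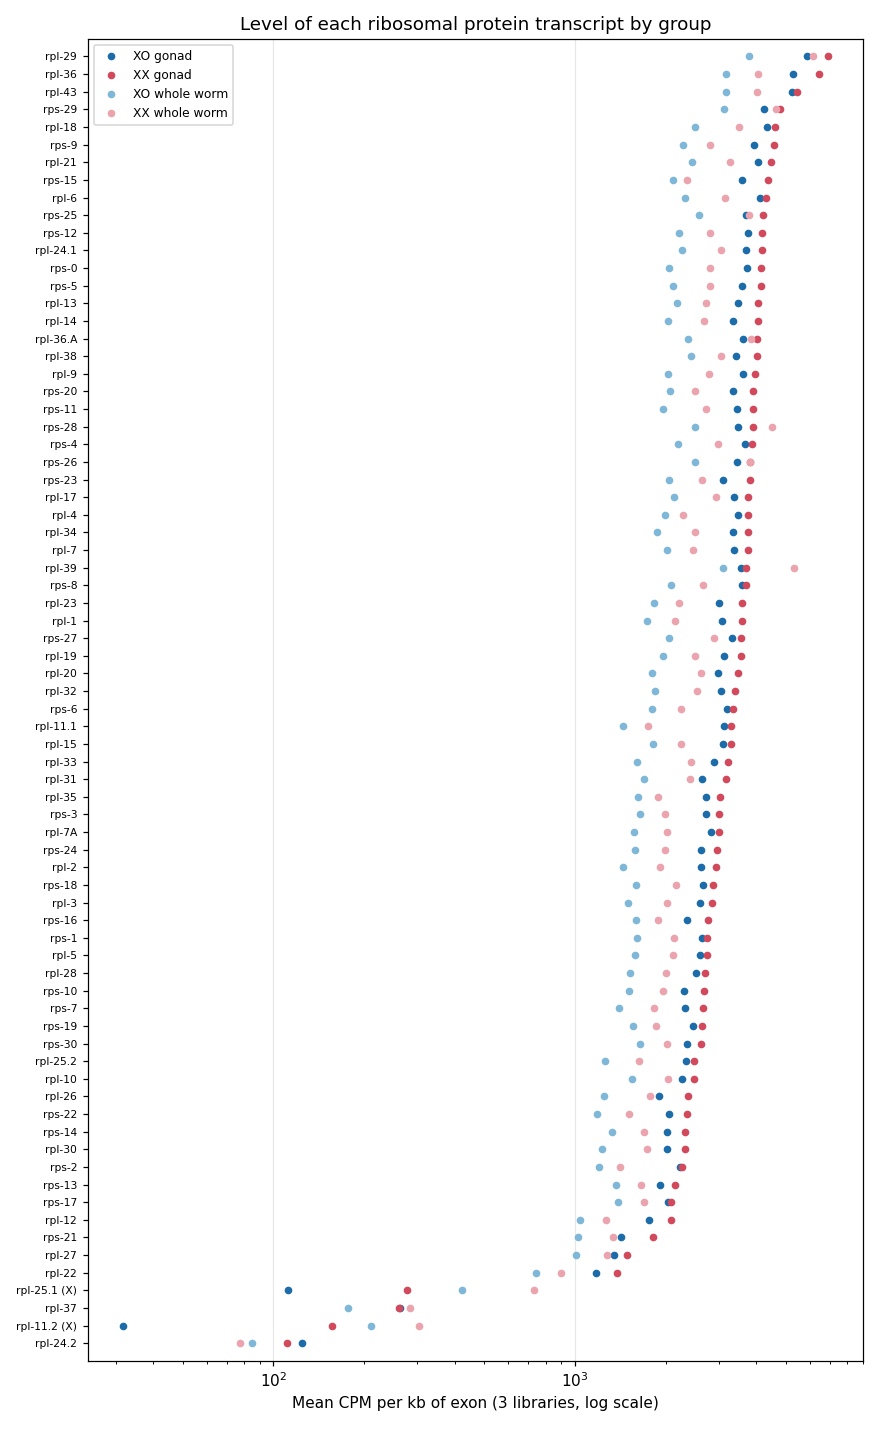
Mean level of each of the 74 tested genes in the 4 groups, in CPM per kb of exon on a log axis (3 libraries a group), ordered by level in XX gonads. All but rpl-25.1, rpl-37, rpl-11.2 and rpl-24.2 lie close together, and the X-linked pair is lowest in XO gonads.

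Both X-linked members have an autosomal copy with the same number. The X-linked rpl-11.2 (F07D10.1) pairs with rpl-11.1 (T22F3.4, chromosome V), and both encode RPL11, which binds the smallest ribosomal RNA in the large subunit. The X-linked rpl-25.1 (F55D10.2) pairs with rpl-25.2 (F52B5.6, chromosome I); RefSeq names them rpl-23A.1 and rpl-23A.2 after RPL23A, a protein at the exit of the nascent chain tunnel. Exonic lengths are 731 and 654 bp in the first pair and 494 and 495 bp in the second. Reads that fit both copies of a pair would have been set aside or shared by the counting, so each copy's level is uncertain to that extent.

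In gonads the X-linked copies were minor and the autosomal copies carried nearly all counts. For rpl-11.2 the XO gonad libraries gave 20.9, 26.3 and 22.3 CPM, and the XX gonad libraries 124, 92.2 and 126 CPM. For rpl-11.1 they gave 1973, 2258 and 1914 CPM in XO and 2548, 1895 and 2034 CPM in XX. The X-linked copy was lower in every XO library than in any XX library, and the autosomal copy overlapped.

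The rpl-25 pair had the same order with a smaller gap. Levels of rpl-25.1 were 45.1, 57.2 and 63.4 CPM in XO gonads and 128, 109 and 175 CPM in XX gonads. Levels of rpl-25.2 were 1054, 1362 and 1058 CPM in XO gonads and 1334, 1103 and 1244 CPM in XX gonads. Again only the X-linked copy separated the karyotypes.

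Whole worms held more of the X-linked copies and less of the autosomal ones. The level of rpl-11.2 was 158, 143 and 160 CPM in XO and 208, 227 and 232 CPM in XX, and rpl-11.1 was at 942 ± 135 and 1140 ± 71.6 CPM (SD, n = 3 each). The level of rpl-25.1 was 181, 196 and 248 CPM in XO and 332, 417 and 336 CPM in XX, and rpl-25.2 was at 621 ± 114 and 805 ± 58 CPM. The order of levels was therefore the same for both X-linked copies, XO gonads, XX gonads, XO whole worms and XX whole worms. Neighbours in that order did not overlap for either gene, though for rpl-25.1 the gap between XX gonads (109 to 175 CPM) and XO whole worms (181 to 248 CPM) was smaller than the spread within either group.

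**Figure D3:**
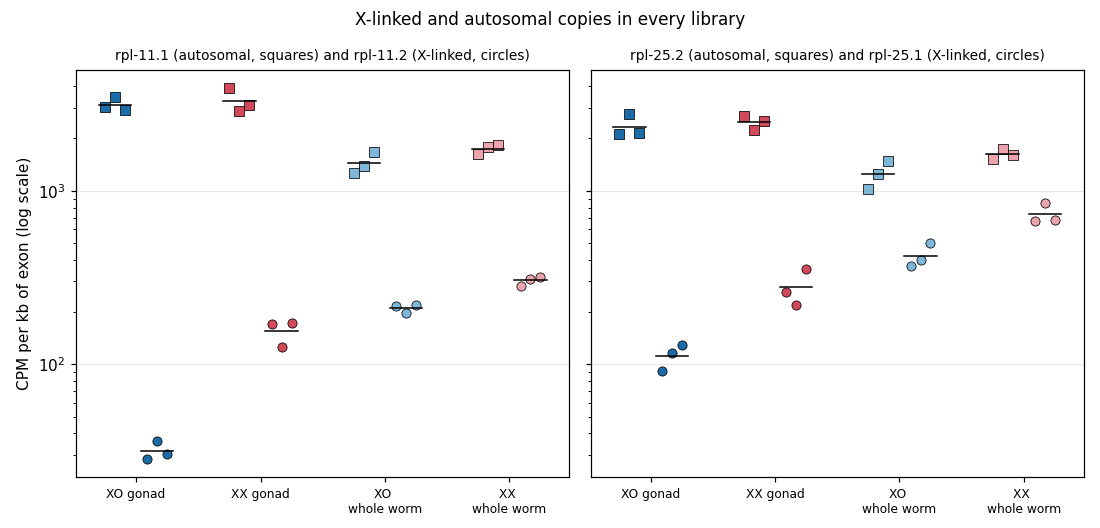
Level of each copy in every library, in CPM per kb of exon on a log axis; squares are the autosomal copies, circles the X-linked copies and bars the group means (n = 3). Circles rise from XO gonads to XX whole worms while squares are higher in gonads than in whole worms.

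As a share of its pair per kb, rpl-11.2 was 1.00% ± 0.0536 in XO gonads, 4.53% ± 0.622 in XX gonads, 12.9% ± 1.52 in XO whole worms and 14.9% ± 0.0785 in XX whole worms (SD, n = 3 each). The share of rpl-25.1 was 4.6% ± 0.920, 10.1% ± 2.01, 25.2% ± 1.14 and 31% ± 1.5 in the same order. A ratio of copies within a library does not depend on how libraries are scaled. The log2 ratio of rpl-11.2 to rpl-11.1 was lower in XO than in XX gonads by 4.67-fold (difference of -2.22), and that of rpl-25.1 to rpl-25.2 by 2.32-fold (-1.21). Without the first XX gonad library the differences were -2.28 and -1.31. In whole worms the differences were -0.25 and -0.41. None of the 4 comparisons had overlapping groups, and each reached the exact 2-sided permutation p of 0.1 that is the smallest possible here.

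In gonads the sum of both copies was mostly the autosomal copy, so a fall of the X-linked copy could change it little. The library that stood apart had the highest sum of the XX gonads for both pairs, and the sums below include it. The rpl-11 pair summed to 3164 CPM per kb in XO and 3457 in XX gonads (exact permutation p = 0.6), and the rpl-25 pair to 2451 and 2757 (exact permutation p = 0.2), with overlapping libraries. In whole worms both sums were lower in XO than in XX, 1650 against 2047 and 1677 against 2358 CPM per kb, without overlap (exact permutation p = 0.1 each).

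Across all members, XO and XX gonads were compared with edgeR's quasi-likelihood test and Benjamini-Hochberg adjustment over 8558 genes. Only the X-linked pair passed, both lower in XO: 2 of 74, against 19.7% of all genes tested that were lower and 8.07% that were higher. The gene rpl-11.2 fell 4.82-fold (log2 fold change -2.27, SE 0.17, adjusted p = 0.000168) and rpl-25.1 fell 2.44-fold (-1.29, SE 0.21, adjusted p = 0.00551). None of the 72 autosomal members passed, while 11.9% of all autosomal genes were lower and 8.41% higher. Their log2 fold changes ran from -0.32 to 0.19 with a median of -0.13. None reached an unadjusted p under 0.05, which 24.7% of all genes did as lower and 14% as higher. All genes include the X-linked ones, which were mostly lower. Of the 7480 autosomal genes tested, 1281 reached it as lower and 1111 as higher. DESeq2 called neither more nor fewer members.

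The autosomal copies were among those that did not pass, with rpl-11.1 at -0.05 (SE 0.14, adjusted p = 0.805) and rpl-25.2 at -0.06 (SE 0.14, adjusted p = 0.776). The sign of both is unsettled: it was positive without the first XX gonad library (0.10 and 0.02) and after a trend with gene length was removed (0.03 and 0.02). Without that library the median over the members was 0.03, with 25 of 74 below 0, in place of 71 of 74 with it. The X-linked pair stayed lower without it, at -2.19 and -1.32. The only member then called higher was rpl-24.2 (0.32, adjusted p = 0.0271), while 18.8% of all genes were higher and 23.8% lower in that setting.

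The fall of the X-linked pair was set beside other X-linked genes. Of 955 X-linked genes tested in gonads, 81.4% were lower in XO, with a median log2 fold change of -2.90 (85.1% and -2.94 without the XX gonad library that stood apart). The value of rpl-11.2 stood above 68.6% of them and that of rpl-25.1 above 83.5%, so both fell less than the median X-linked gene. Per kb of exon, rpl-25.1 was the highest of 2718 X-linked rows in XO gonads and had rank 8 in XX gonads, and rpl-11.2 had ranks 15 and 16.

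Some somatic markers also differed between XO and XX gonads, and not all in the same direction. Markers of the gonadal sheath, 4 genes, summed to 2.05 to 3.13 CPM in XO gonads and 269 to 284 CPM in XX gonads, with tbh-1 at 0.423 and 170 CPM on average and lim-7 at 0.481 and 5.79 CPM. At least tbh-1, which made up most of the XX sum, is itself X-linked. Of all X-linked genes tested, 81.4% were lower in XO gonads. Muscle markers (5 genes) summed to 108 to 167 CPM in XO and 326 to 411 CPM in XX gonads, and intestine markers (7 genes) to 125 to 205 and 327 to 429 CPM. The higher intestine sum in XX came from the vitellogenins vit-2 (18.3 and 156 CPM on average in XO and XX) and vit-6 (22.5 and 180 CPM). The means of the other 5 intestine markers were higher in XO gonads, asp-1 the most abundant of them at 108 against 28.8 CPM. Hypodermis and cuticle markers (5 genes) summed to 83 to 90.2 CPM in XO and 26.4 to 57 CPM in XX gonads. Neuron markers (5 genes) summed to 145 to 159 and 175 to 231 CPM. Of these, snb-1 and unc-119 had lower means in XO, and rab-3, unc-31 and ida-1 higher ones. Pharynx markers (3 genes) were low in both, at no more than 8.72 CPM. The X-linked copies were higher in whole worms than in gonads of the same karyotype. What part somatic cells had in the difference between XO and XX gonads was not tested.

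**Figure D4:**
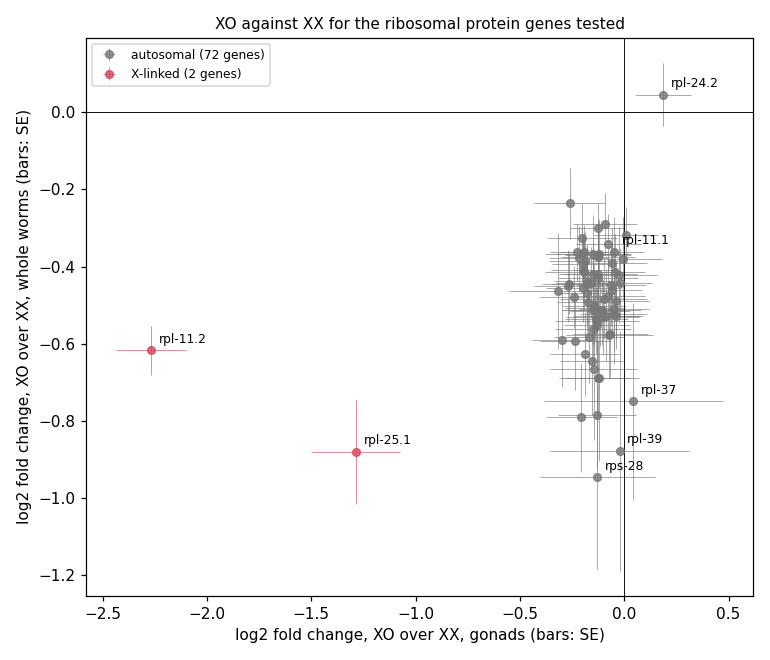
Log2 fold change of XO over XX in whole worms against that in gonads, 1 point per gene tested, with bars of 1 SE. The autosomal genes (grey) lie near 0 in gonads and mostly between -0.3 and -0.7 in whole worms, while rpl-11.2 and rpl-25.1 (red) lie at -2.27 and -1.29 in gonads.

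In whole worms, ribosomal protein transcripts were lower in XO than in XX as a set. Of 74 members 71 passed as lower and 0 as higher (0 also at an unadjusted p under 0.05), against 24.2% of all 12259 genes tested that were lower and 29.2% that were higher. The median log2 fold change was -0.47, beside 0.02 over all genes. All 31 small subunit members and 40 of 43 large subunit members were lower, with medians of -0.45 and -0.50. The libraries of the karyotypes did not overlap for 66 members, all lower in XO, against 21.6% of all genes.

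Among the autosomal members that passed, the largest fall was that of rps-28, a small subunit protein near the exit of the message channel. Its libraries gave 468, 559 and 857 CPM in XO and 1070, 1278 and 1067 CPM in XX whole worms. The groups did not overlap, and the log2 fold change was -0.95 (SE 0.24, adjusted p = 0.0214).

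Of those that passed, rpl-29 followed, with 762, 812 and 1156 CPM in XO and 1459, 1582 and 1401 CPM in XX (-0.79, SE 0.14, adjusted p = 0.00131). The gene rpl-36.A (RPL36A, at the exit site for transfer RNA) fell as far, with a log2 fold change of -0.79 (SE 0.14, adjusted p = 0.00118). The next to pass was rpl-33, named rpl-35A by RefSeq, with 617, 675 and 821 CPM in XO and 992, 1164 and 1048 CPM in XX (-0.69, SE 0.10, adjusted p = 6.1e-05). In all of them the third XO library was the highest of its group and still below the XX libraries.

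Among small subunit members, rps-26 and rps-25 also fell, by log2 fold changes of -0.69 (adjusted p = 0.0381) and -0.65 (adjusted p = 0.00331), and rps-29 by -0.67 (adjusted p = 0.0216). The calls of rps-28, rps-26 and rps-29 were lost when the second XO or the first or second XX library was left out, that of rps-26 also without the third XX library, and those of all 3 without the count filter. Small changes were seen for rpl-4 (-0.29, adjusted p = 0.00823), which lines the exit tunnel, and rps-15 (-0.24, adjusted p = 0.0446), of the decoding region.

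Both copies of each pair fell in whole worms. The X-linked rpl-25.1 fell by 0.88 (SE 0.14, adjusted p = 0.00115) and rpl-11.2 by 0.62 (SE 0.06, adjusted p = 1.93e-06) on the log2 scale. The autosomal rpl-25.2 fell by 0.46 (SE 0.11, adjusted p = 0.00638) and rpl-11.1 by 0.36 (SE 0.09, adjusted p = 0.00452).

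The members that did not pass were rpl-39 (-0.88, SE 0.31, adjusted p = 0.0708), rpl-37 (-0.75, SE 0.25, adjusted p = 0.0585) and rpl-24.2 (0.05, SE 0.08, adjusted p = 0.671). The first pair of them had the widest spread between replicates. With all 12 libraries in the fit, which adds the spread of gonads, 33 members passed as lower, against 13.4% of all genes in that fit, and the median was -0.38. Then rpl-11.1, rpl-25.2 and rps-29 did not pass (adjusted p = 0.117, 0.0551 and 0.0507).

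Other things moved with karyotype in whole worms. The 7 germline markers summed to 3280 to 3692 CPM in XO and 4026 to 4049 CPM in XX, and 6 of them were lower in XO (median log2 fold change -0.22). Intestine markers summed to 5121 to 5738 CPM in XO and 76152 to 103379 CPM in XX, of which vit-2 and vit-6 made up 35592 and 47291 CPM on average in XX, against 224 and 277 CPM in XO. Of the other 5 intestine markers asp-1 was higher in XO (0.35, adjusted p = 0.0108), cpr-6 and mtl-2 were lower (-0.58 and -0.57, adjusted p = 3.77e-05 and 0.0408), and elt-2 and ges-1 did not pass (-0.08 and -0.04). The sum of the 5 muscle markers was higher in XO, at 11897 to 12778 against 5158 to 6720 CPM, and unc-54 made up the largest part of it. Of these 5, 3 passed as higher, beside 29.2% of all genes, and 2 did not pass. The mean of myo-3 was lower in XO, at 175 against 191 CPM. The part of cell makeup in the lower ribosomal protein level was not tested.

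Genes that work with the ribosome were also described in whole worms, beside the 24.2% of all genes that were lower and 29.2% that were higher; differences between lists were not tested. All 6 ribosome partners (stalk proteins, ubiquitin fusions and rack-1) were lower in XO, with a median of -0.38, such as rla-2 (-0.45, adjusted p = 0.000634) and ubq-2 (-0.49, adjusted p = 0.000861). Of 9 elongation factors 7 were lower and 2 higher (median -0.29), with eef-1B.1 at -0.47 (adjusted p = 0.000156). Of 32 initiation factors tested 15 were lower and 0 higher (median -0.16), and of 20 cytosolic tRNA synthetases 13 and 0 (median -0.18).

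Of 18 assembly factors 6 were lower and 2 higher (median -0.09), with fib-1, the fibrillarin of the nucleolus, at -0.48 (adjusted p = 2.73e-05). Of 7 RNA polymerase I genes 1 was lower, rpoa-49 (-0.26, adjusted p = 0.011). Of 68 mitochondrial ribosomal protein genes 16 were lower and 1 higher (median -0.13), a share near that of all genes lower, with mrpl-11 at -0.62 (adjusted p = 1.08e-05).

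In gonads most genes of these lists did not pass, beside 19.7% of all genes lower and 8.07% higher. None of the ribosome partners, RNA polymerase I genes or tRNA synthetases passed edgeR's test there, and 0, 1 and 1 of them reached an unadjusted p under 0.05. Of elongation factors 2 were lower in XO, the X-linked eef-1A.2 and iff-2 (-1.11, adjusted p = 0.000699), and of initiation factors 3, the X-linked ife-2 and ife-4 with ife-5 (-0.69, adjusted p = 0.00944). Of the assembly factors 4 were higher in XO and 0 lower (median 0.35), among them pro-3 (1.03, adjusted p = 0.0244) and rrp-1 (0.58, adjusted p = 0.00358). Of the mitochondrial ribosomal protein genes 2 were higher, mrps-22 (0.44, adjusted p = 0.0156) and mrpl-50 (0.45, adjusted p = 0.0287). These counts depend on the XX gonad library that stood apart: without it 18.8% of all genes were higher in XO. Then 8 of 18 assembly factors, 17 of 68 mitochondrial ribosomal protein genes, 7 of 32 initiation factors, 3 of 7 RNA polymerase I genes and 3 of 20 tRNA synthetases passed as higher, and 2 elongation and 3 initiation factors as lower.

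Among these lists 3 genes are X-linked, and all were lower in XO gonads. They are the initiation factors ife-2 (-3.46, adjusted p = 0.000137) and ife-4 (-2.12, adjusted p = 0.000959), which bind the message cap, and the elongation factor eef-1A.2 (-1.72, adjusted p = 0.000168). The last has an autosomal copy, eef-1A.1 on chromosome III, at 19420 ± 1299 CPM in XO gonads and 18917 ± 2554 CPM in XX gonads (SD, n = 3 each). Levels of eef-1A.2 were 56 ± 3.51 and 188 ± 25.6 CPM. In whole worms eef-1A.2 was higher in XO, at 520 ± 38.0 against 405 ± 2.76 CPM (0.28, adjusted p = 0.00201), while rpl-11.2 and rpl-25.1 were lower there.

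Autosomal members were higher in gonads than in whole worms, and the X-linked pair was lower. In XO, 65 members passed as higher and 2 as lower, against 29.6% of 12528 genes higher and 50.3% lower. In XX, 56 passed as higher and 2 as lower, against 28.5% and 42.4%, and 42 as higher without the first XX gonad library, against 33.7%. The members' median was 0.72 in XO beside -0.83 over all genes, and 0.46 in XX beside -0.32.

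The pair of members that fell was in both karyotypes rpl-11.2 and rpl-25.1. In XO, rpl-11.2 was 6.63-fold lower in gonads (-2.73, SE 0.14, adjusted p = 2.37e-09) and rpl-25.1 was 3.77-fold lower (-1.92, SE 0.20, adjusted p = 2.52e-06). In XX the values were -0.96 (SE 0.13, adjusted p = 2.5e-05) and -1.39 (SE 0.19, adjusted p = 4.49e-05), and without the first XX gonad library -1.02 and -1.34. The share of X-linked genes lower in gonads was 88% in XO and 67.4% in XX.

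The autosomal copy rpl-11.1 was the member with the largest rise in both karyotypes, 2.18-fold in XO (1.12, SE 0.13, adjusted p = 6.34e-06) and 1.89-fold in XX (0.92, SE 0.13, adjusted p = 4.66e-05). The other autosomal copy, rpl-25.2, ranked 2 of 74 in XO (0.90, SE 0.14, adjusted p = 8.78e-05) and 15 in XX (0.61, SE 0.14, adjusted p = 0.00207). Summed over both copies, the log2 ratio of gonad to whole worm for rpl-11 was 0.94 in XO and 0.76 in XX, above the median of the 70 other members (0.72 and 0.46). For rpl-25 the sums gave 0.55 and 0.23, and 60 and 61 of the 70 others were higher.

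Other members with large rises in XO were rps-2 (0.90, adjusted p = 1.74e-05), near the entry of the message, and rpl-2 (0.86, adjusted p = 0.000136), the RPL8 of the catalytic centre. In XX they were rps-15 (0.90, adjusted p = 0.000121), rpl-1 (0.74, adjusted p = 0.000131), the RPL10A of the flexible stalk, and rpl-4 (0.72, adjusted p = 0.000155). The libraries for rps-15 in XX gave 2724, 1872 and 1865 CPM in gonads and 1160, 1017 and 1293 CPM in whole worms. Gonads and whole worms did not overlap for it, and the library that stood apart was the highest. That library was also the highest XX gonad library for rpl-1 (3089, 2255 and 2288 CPM) and rpl-4 (5140, 3778 and 3704 CPM). The rises of these single genes were not given without it. Without that library the median over all members in XX was 0.33.

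Scaling changes these counts. DESeq2's size factors moved the median of all genes from -0.83 to -0.97 in XO and from -0.32 to -0.48 in XX, and in XX 30 members then passed as higher, against 22.8% of all genes. Relative to the median of all genes the members stood at 1.55 in XO under both scalings, and at 0.79 and 0.83 in XX. When a trend with exonic length was removed, the members' median was 2.26 in XO and 1.46 in XX, and the median of all genes 0.26 and 0.37. Then rpl-11.2 still passed as lower in XO (-1.41), while rpl-25.1 in XO (-0.25) and both in XX (-0.14 and -0.31) did not. The members are short, with a median exonic length of 532 bp for those autosomal ones tested, beside 1400 bp for all genes tested. The ratio of the copies, which have nearly equal lengths, was lower in gonads than in whole worms, with log2 differences of -3.86 (rpl-11) and -2.82 (rpl-25) in XO, and -1.89 and -2.02 in XX.

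**Figure D5:**
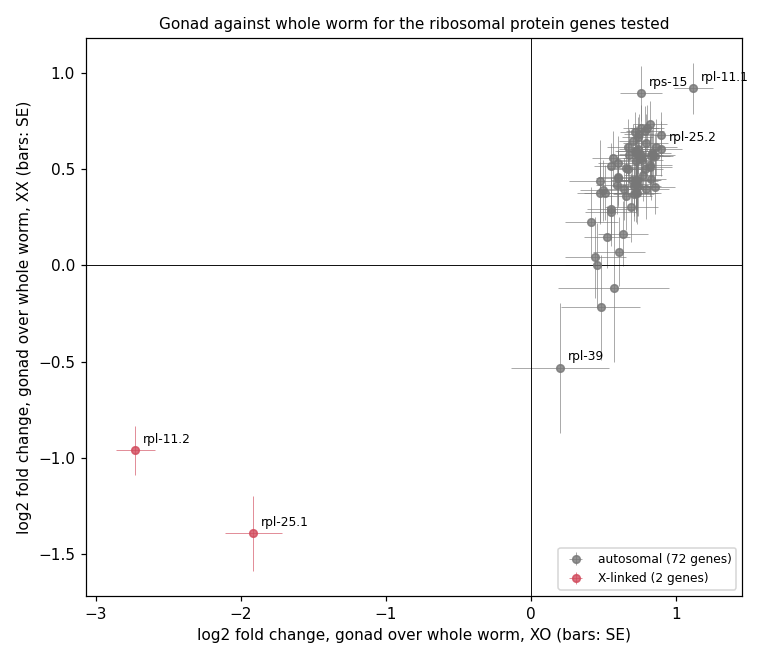
Log2 fold change of gonad over whole worm in XX against that in XO, 1 point per gene tested, with bars of 1 SE. Both X-linked genes, rpl-11.2 and rpl-25.1 (red), are below 0 in both, and rpl-11.1 is the highest in both.

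Whether the XO to XX difference depended on tissue was tested as an interaction over all 12 libraries. One member passed (1 of 74 lower, against 14.1% of all genes), and 0 were higher, against 2.96%. This was rpl-11.2, whose difference in gonads was more negative than that in whole worms by 1.77 on the log2 scale (value -1.77, SE 0.18, adjusted p = 1.94e-05). For rpl-25.1 the value was -0.52 (SE 0.27, adjusted p = 0.247), so a dependence on tissue was not shown for it, and the 95% interval ran from -1.05 to 0.01. Its sign turned (0.06) when the length trend was removed. The autosomal copies gave 0.20 (adjusted p = 0.546) and 0.29 (adjusted p = 0.406).

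The autosomal members had a median interaction of 0.24, and 71 of 72 were above 0. None passed, against 9.73% of autosomal genes lower and 2.85% higher, and 2 were higher at an unadjusted p under 0.05, against 7.22% of all genes. The count of 0 rests on the first XX gonad library: without it 11 autosomal members passed as higher, against 3.91% of all genes, among them rpl-6 (0.49, adjusted p = 0.00825), rps-0 (0.44, adjusted p = 0.0151) and rps-2 (0.38, adjusted p = 0.0158). The interaction of rpl-11.2 was -1.70 without that library. Without the third XO whole worm library 1 member passed as higher, rpl-29 (0.68, adjusted p = 0.0448), and with the length trend removed 64 did, against 16.7% of all genes in that setting.

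Over the 12 libraries the X-linked copies followed each other and not the other members. Pearson's r of log2(CPM + 1) was 0.96 between rpl-11.2 and rpl-25.1. The median r among pairs of autosomal members was 0.95, and the median r of autosomal members was -0.43 with rpl-11.2 and -0.47 with rpl-25.1. These values describe 12 libraries that fall into 4 groups and share their scaling.

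The 5 genes most like rpl-11.2 in this measure were aco-1 (r = 0.994), Y71H10B.1, K09E9.1, slc-25A18.1 and let-2, and all lie on the X chromosome. The 5 most like rpl-25.1 were the X-linked tag-343 (r = 0.979), R10E9.3 on chromosome III, C17C3.1 on II, lbp-5 on I and the X-linked serp-1.1.

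The spread between replicates differed among members and was wider for short genes. Spearman's rho between the SD of log2 CPM within groups and exonic length was -0.49 over the 74 members, which are not independent. The median SD was 0.22 for the 31 members under 500 bp and 0.17 for the 12 over 800 bp. The widest spreads were those of rpl-37 (0.51), rpl-39 (0.44) and rps-28 (0.36), which are 276, 236 and 252 bp long. The libraries of rpl-39, a protein of the exit tunnel, gave 644, 1234 and 645 CPM in XO gonads, 1072, 633 and 911 CPM in XX gonads, 483, 645 and 1064 CPM in XO whole worms and 1160, 1356 and 1269 CPM in XX whole worms. Its gonad groups overlapped over most of their range, and its whole worm groups did not.

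The 3 ribosomal protein genes with RefSeq names only gave values within the range of the autosomal members. In whole worms W01D2.1 was lower in XO by 0.70 (adjusted p = 0.00017), Y37E3.8 (RPL27A) by 0.49 (adjusted p = 0.00286) and ubl-1 (RPS27A) by 0.36 (adjusted p = 0.00129) on the log2 scale. In gonads W01D2.1 was at -0.18 (adjusted p = 0.568) and Y37E3.8 at -0.15 (adjusted p = 0.554).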

How the data were processed

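Polyadenylated RNA of 12 samples was sequenced as stranded libraries, per the labels' protocols, and the authors deposited raw counts of reads for each gene. TopHat2 2.0.12, HTSeq, SAMtools 1.2, CASAVA 1.8 and Cufflinks 2.2.0 are listed in the submitters' processing notes, with no roles; the build, annotation and strand setting are not given in the sources used here. Summary lines, such as reads with several places, were left out. Reads with several places were 4.99% to 8.8% of a file's total in gonads, 12.8% to 14.2% in XO whole worms and 17.6% to 20.3% in XX whole worms. Their share thus differed between the groups compared, and what this did to the levels was not tested. Sequence names were matched to WBcel235 for symbols, chromosomes and exonic lengths (19899 of 20389 rows); no coordinates are printed.

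Groups and replicate numbers came from sample titles. Whether replicates were separate cultures is not labelled, so p-values reflect a spread between samples that may be technical. Tests used edgeR 4.0.16 (R 4.3.3): TMM scaling, a filterByExpr minimum count of 10, robust quasi-likelihood fits and tests on both sides, with Benjamini-Hochberg adjustment over all genes tested (threshold 0.05). XO against XX was fitted on the 6 libraries of a tissue, and the other comparisons on all 12. SE came from the F statistic. CPM used TMM scaled library sizes of the 12 libraries. Single values were compared by exact permutation tests over libraries. Alternatives included DESeq2 1.42.0. The fits were tested on simulated data with 200 changed genes. The simulated spread was smaller than that fitted to the gonads or to all 12 libraries, so it does not show how the fits perform there.

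The members and gene lists were chosen with earlier results of these data known. Named genes were the X-linked members and their copies, the highest and lowest member of each group, members that failed the filter, up to 8 called in each direction for XO against XX, 4 for gonad against whole worm, the 5 most like each X-linked member, and up to 3 per list with the smallest adjusted p. Others (rpl-39, rpl-37, rpl-24.2, rpl-22, rpl-4 and rps-15 in whole worms, and calls gained without a library) were named after their values were seen. Listed symbols vars-2, iftb-1, nol-1 and bop-1 were not matched.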

Additional observations from a re-analysis of the deposited data

Results flagged for a closer look

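The difference between XO and XX was not the same in gonads and whole worms for rpl-11.2 and for the X-linked elongation factor eef-1A.2. The interaction of karyotype and tissue was -1.77 on the log2 scale for rpl-11.2 (edgeR, adjusted p = 1.94e-05), with every XO library below every XX library in both tissues. For eef-1A.2 it was -2.11 (edgeR, adjusted p = 6.64e-07), with XO lower than XX in gonads and higher in whole worms. Within libraries, the log2 ratio of eef-1A.2 to eef-1A.1 was lower in XO gonads by 1.79 and higher in XO whole worms by 0.56, and neither pair of groups overlapped (exact permutation p = 0.1 each, the smallest possible).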

How the results depend on the processing

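Of 82 counts and group values under other settings, 72 were labelled the same. For counts this meant within a factor of 1.5, and for group values the same sign and a shift under 1 group SD. The replicate block could change only the p of a share or a ratio of copies, so those labels were fixed in advance. Of 222 values of single members 208 kept direction and call. Removing the length trend gave 1 member higher in XO gonads, 1 lower in XO gonads against whole worms and 0 in XX, 64 higher in the interaction, and reversed rpl-11.1 (0.029) and rpl-25.2 (0.024) in gonads and rpl-25.1 in the interaction (0.058). With all 12 libraries 33 members were lower in XO whole worms. Members higher in XX gonads than in whole worms numbered 30 with DESeq2's size factors, 34 with TMM without ribosomal protein genes and 29 with DESeq2. In those settings 22.8%, 24.7% and 22.4% of all genes were higher. Relative to autosomal counts or to TMM scaled library sizes, the XO minus XX difference in share in whole worms was -2.37 and -2.39 points.

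With 1 library left out, members higher in XO gonads numbered 0 to 1, lower in XO whole worms 63 to 72, higher in the interaction 0 to 11, higher in XO gonads against whole worms 62 to 70 and in XX 41 to 58. The gonad difference in share ran from -1.87 to 0.353 points, and the gonad log2 fold changes of rpl-11.1 from -0.146 to 0.099 and of rpl-25.2 from -0.21 to 0.021, positive only without the first XX gonad library. The log2 ratio of copies ran from -2.28 to -2.11 (rpl-11) and from -1.38 to -1.04 (rpl-25) in gonads.

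Samples with the same replicate number deviated together little or not at all, with r from -0.512 to -0.184 between XO and XX gonads. Between XX gonads and XX whole worms the same number was the closest match for each replicate, but r was only 0.0155 to 0.0561. The numbers were therefore not taken as pairs. With the number as a replicate block, 73 members were lower in XO whole worms, 2 lower in XO gonads, and 65 (XO) and 47 (XX) higher in gonads than in whole worms. Arms with 1 library left out had 2 samples, and gonads gave wider spread than whole worms, which limits small differences there.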
